A study of Homo sapiens with 6 samples.

Results

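The genes described here are 43 genes of mitochondrial and peroxisomal fatty acid oxidation and its control, out of 57878 genes counted in HEK293 cells. HEK293 is an established line derived from human embryonic kidney. They were named from the known steps of the pathway. No measured value enters the rule, but the genes were chosen with earlier results of these data known. Of the 43 genes, 24 act in mitochondria only, 9 in peroxisomes only, 5 in both compartments and 5 in neither, and these last are the brain form of carnitine palmitoyltransferase, a cytosolic thioesterase and 3 transcriptional regulators. All 43 had counts and all 43 passed the filter on low counts, beside 26053 genes in all. RNA of 3 wild type (WT) samples and 3 samples labelled MUL1(-/-) was sequenced. MUL1 is an E3 ubiquitin ligase of the outer mitochondrial membrane, and CRISPR-Cas9 was used to inactivate it. All cells grew untreated in DMEM with fetal calf serum, glutamine, penicillin and streptomycin. The sources do not say which clone of each genotype was sequenced or whether the 3 samples came from separate cultures, so the p-values measure only the spread between these samples, which may be technical.

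Beta-oxidation shortens a fatty acyl-CoA from its carboxyl end through repeated rounds of dehydrogenation, hydration, a second dehydrogenation and thiolysis, and releases acetyl-CoA in each round. Long chains enter mitochondria as acylcarnitines through the carnitine shuttle, and the electrons of the acyl-CoA dehydrogenases pass through the electron transfer flavoprotein to ubiquinone. Peroxisomes shorten very long and branched chains with oxidases that pass electrons to oxygen, and export the shortened products as carnitine esters or as free acids. The PPAR nuclear receptors and the coactivator PGC-1alpha are known regulators of genes of this pathway.

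The exon-bin tables summed to 127466071 to 149317215 counts per library, and levels are given in CPM, counts per 1000000 of the library's TMM-scaled total. A read is counted in every bin it touches, so CPM and CPM per kb of bins also rise with the number of bins. They do not rank genes by amount of RNA. A count of 3, below which a gene was not told from absent, corresponded to 0.0203 to 0.0234 CPM. MUL1 itself was measured at 14.6, 14.6 and 18.2 CPM in the WT libraries and 17.8, 15.9 and 18.6 CPM in the libraries labelled MUL1(-/-), a log2 fold change of 0.14 ± 0.10 (SE) with an adjusted p of 0.303 in edgeR's quasi-likelihood test. The RNA level of MUL1 therefore did not check the labels, and the groups are named by their labels throughout. All 7 markers of HEK293 cells chosen for this check were counted, and they summed to 1252 to 1444 CPM in WT and 903 to 1062 CPM in MUL1(-/-) libraries. Markers of 4 other cell types were low, with sums given for WT and then MUL1(-/-) libraries. These were 0.176 to 0.311 and 0.250 to 0.358 CPM for hepatocytes, and 0.940 to 1.07 and 2.32 to 2.89 CPM for muscle. They were 0.617 to 0.773 and 1.28 to 1.39 CPM for adipocytes, and 0.848 to 1.28 and 1.79 to 2.23 CPM for leukocytes. Fibroblast markers were not low, with sums of 22.6 to 29.9 and 26.6 to 35.5 CPM, and the most counted of them had a mean of 18.5 CPM. Of these markers APOB, CD3E and ADIPOQ had 0 to 2 counts in every library. Others of their lists were counted, and 1 of 5 hepatocyte, 3 of 4 adipocyte and 3 of 4 leukocyte markers passed the filter on low counts. By the test, 2 of 5 muscle, 2 of 4 adipocyte and 2 of 4 leukocyte markers were higher in MUL1(-/-) libraries, 2 of 4 fibroblast markers were higher and 1 lower, and 1 of 7 HEK293 markers was higher and 3 were lower, beside 19.3% higher and 18.5% lower of all genes tested. The part of these differences in the results was not tested. In bulk RNA, fewer cells that express a gene and less of its RNA per cell cannot be told apart.

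Genes of mitochondrial fatty acid oxidation that changed were higher in MUL1(-/-) libraries, led by ACADVL (very long-chain acyl-CoA dehydrogenase), ETFB (the beta chain of the electron transfer flavoprotein) and ACOT2 (a mitochondrial acyl-CoA thioesterase), while peroxisomal genes changed in both directions and ACOT8, a peroxisomal thioesterase, fell. With edgeR 16 of the 43 genes were called higher and 4 lower (adjusted p under 0.05), where 19.3% of all 26053 genes tested were higher and 18.5% were lower. That is 20 of 43 genes called beside a background of 37.8%. The background was not matched for level. Of the 43 genes 40 had a mean of at least 1 CPM, beside 16653 of the 26053 genes tested. DESeq2 called 15 higher and 4 lower, beside 18.9% and 18.1% of all genes, or 37.1% in both directions. The log2 fold change was above 0 in 28 of the 43 genes, beside 49.9% of all genes. Of the 24 mitochondrial genes 10 were higher and 0 were lower, of the 9 peroxisomal genes 2 were higher and 2 were lower, and of the 5 genes of both compartments 2 were higher and 1 was lower. The difference between compartments was not tested. Without MUL1(-/-) replicate 3, the mitochondrial genes CPT1A and ACADL were called lower, at log2 fold changes of -0.91 and -0.47. The median log2 fold change was 0.13 over all 43 genes, 0.13 over the mitochondrial genes and -0.02 over the peroxisomal genes, where the median of all genes tested was -0.00.

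The changes were modest in size. The study's methods count a gene as differentially expressed when it passes the adjusted p and also changes by more than 1 on the log2 scale, and by this rule edgeR called 0 of the 43 genes, beside 7.91% of all genes tested. DESeq2 called 0, beside 7.23% of all genes, limma-voom called 1, and at an unadjusted p under 0.05 edgeR had 1 gene past this fold, in both cases the low-level ACOT4. The CPM values of both groups did not overlap in 24 of the 43 genes, beside 49% of all genes tested. Leaving out 1 library moved the number of genes called higher between 11 and 14. The number called lower was 2 without MUL1(-/-) replicate 1, MUL1(-/-) replicate 2 or WT replicate 1, and 1 without WT replicate 2, against 6 without MUL1(-/-) replicate 3. The plot of log2 fold changes by step shows these values for every gene.

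**Figure D1:**
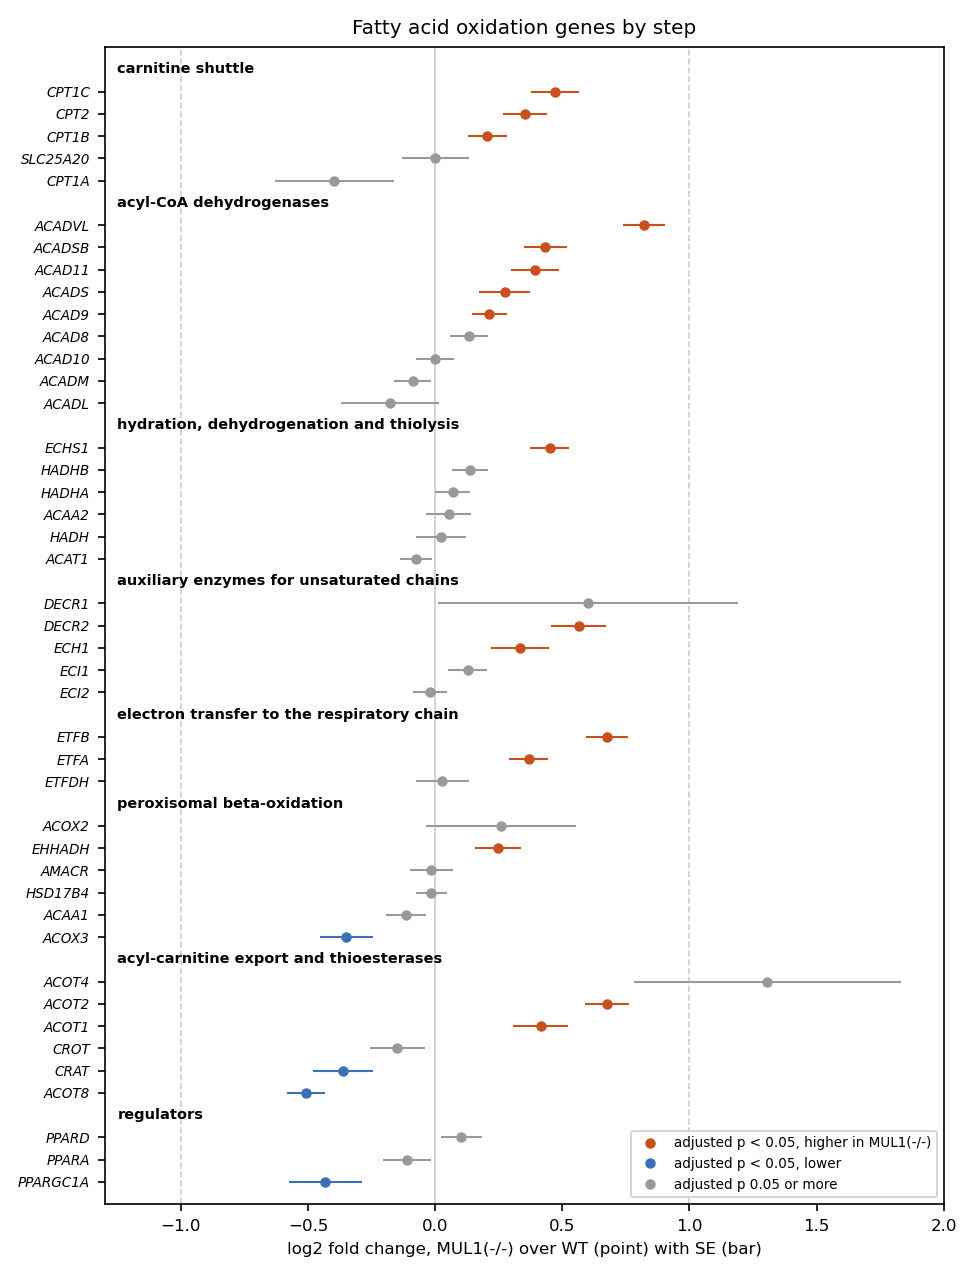
Log2 fold change of each of the 43 genes, MUL1(-/-) over WT, with its standard error (horizontal axis, log2 units), grouped by step of the pathway; orange points were called higher and blue points lower at an adjusted p under 0.05, and grey points were not called. The 16 called genes at the right are spread over the steps from the carnitine shuttle to the thioesterases, and 0 of the 43 points is both called and beyond a log2 fold change of 1.

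In the carnitine shuttle, CPT2, the transferase of the inner mitochondrial membrane that remakes acyl-CoA from acylcarnitine, was higher in MUL1(-/-) libraries. CPT2 (ENSG00000157184, chr1:53196429-53214197) was at 25.2, 22.3 and 22.7 CPM in WT and 28.4, 28.2 and 33.0 CPM in MUL1(-/-) libraries. Every MUL1(-/-) library was above every WT library, and the log2 fold change was 0.35 ± 0.09 (SE) with an adjusted p of 0.00524. Exons of a gene on the opposite strand touched bins that hold 66.5% of its counts, and the log2 fold change was 0.34 without them. CPT1B, the muscle form of the outer-membrane transferase, had a log2 fold change of 0.20 with an adjusted p of 0.0483, and bins that also belong to the CHKB-CPT1B readthrough gene held 90.6% of its counts. On its unshared bins the log2 fold change was 0.08 and was not called. The CPT1B call was also lost without WT replicate 1, 2 or 3 (log2 fold change 0.21, 0.19 and 0.18) and without MUL1(-/-) replicate 1 or 3 (0.23 and 0.12). SLC25A20, the carnitine-acylcarnitine translocase, had a log2 fold change of 0.00 with an adjusted p of 0.996.

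CPT1A, the liver form of the outer-membrane transferase and the usual control point of the shuttle, had the widest spread among the MUL1(-/-) libraries of the 40 genes of at least 1 CPM, and it is described for that reason, a choice made after its values were seen. It was at 12.9, 12.7 and 13.3 CPM in WT, and at 7.07, 6.79 and 15.8 CPM in MUL1(-/-) libraries. The WT libraries lay close together, MUL1(-/-) replicates 1 and 2 were below all of them, and MUL1(-/-) replicate 3 was above all of them. Over all 6 libraries the log2 fold change was -0.40 ± 0.23 (SE), with an adjusted p of 0.205. Without MUL1(-/-) replicate 3 it was -0.91 ± 0.09 (SE), with an adjusted p of 2.06e-06 in edgeR's test, and with no filter on low counts it was called at -0.37, where the alternatives as a whole gave adjusted p values from 2.06e-06 to 0.588. Replicate 3 exceeded the mean of replicates 1 and 2 by 1.19 on the log2 scale, which ranked CPT1A as number 2 among 12041 genes of at least 5 CPM in every library, where the median was 0.05.

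CPT1C, the brain form that resides in the endoplasmic reticulum and has little transferase activity, changed in which of its exons were counted more than in its sum. CPT1C (ENSG00000169169, chr19:49690898-49713731, plus strand) summed to 15.5, 16.5 and 13.8 CPM in WT and 22.9, 21.1 and 19.4 CPM in MUL1(-/-) libraries, a log2 fold change of 0.47 ± 0.09 (SE) with an adjusted p of 0.00121. On its most counted bin alone the log2 fold change was -0.16 and was not called. Exon-bin usage, which asks whether the bins of a gene change by unequal amounts (edgeR's diffSpliceDGE with Simes' method over bins, a test chosen after seeing the data), differed in CPT1C with an FDR of 6.34e-12. It was called in 1449 of 14859 genes with testable bins (9.75%) and in 4 of the 39 genes of this pathway with such bins, namely CPT1C, ECI1, HSD17B4 and ACADSB. Without WT replicate 1 it was called in 2 of the pathway's genes and 855 genes in all, and without WT replicate 2 in 3 and 703.

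The bins of CPT1C divide at chr19:49712555-49713731, where 3 short transcripts of the retained-intron type are annotated near the 3′ end of the gene. A coding transcript of 3 exons, chr19:49712993-49713731, also starts there. Counts within this stretch were uneven. The bin chr19:49712850-49712971 held 6, 9 and 9 counts in WT and 7, 6 and 6 in MUL1(-/-) libraries. The bin before it held 322, 370 and 273, and 292, 278 and 242. The division was chosen after the values were seen, so both sides are described without a test. The 54 bins before it, which hold the body of the full-length transcripts, summed to 151, 173 and 213 counts in WT and 1228, 1140 and 1031 counts in MUL1(-/-) libraries, or 1.30 ± 0.270 CPM and 8.66 ± 0.607 CPM (mean ± SD, n = 3 each), a ratio of 6.64. The groups lay far apart there. The 15 bins from the division onward summed to 1927, 2255 and 1602 counts in WT and 1804, 1634 and 1452 counts in MUL1(-/-) libraries, or 13.9 ± 1.62 CPM and 12.5 ± 1.14 CPM, a ratio of 0.894 with overlapping groups. The body thus held 7.27%, 7.13% and 11.7% of the gene's counts in WT libraries and 40.5%, 41.1% and 41.5% in MUL1(-/-) libraries. Per length of bins, the 3′ part was counted at 15.9 CPM per kb and the body at 0.262 CPM per kb in WT, against 14.2 and 1.74 CPM per kb in MUL1(-/-) libraries. The 3′ part has 15 bins in 876 bases and the body 54 bins in 4988 bases. This finer cut of the 3′ part was not corrected for.

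The mean CPM was higher in MUL1(-/-) libraries in 53 of the 54 body bins, and in 45 of them every MUL1(-/-) library was above every WT library. Most body bins held few WT counts, and neighbouring bins share reads. In the 28 body bins with at least 10 counts over the 3 WT libraries, the ratio of mean CPM was 4.06 to 11.2. Bins without the difference were sparse, such as chr19:49691890-49691953 with 0, 4 and 2 counts in WT and 2, 2 and 1 counts in MUL1(-/-) libraries. In the 15 bins of the 3′ part the ratios were 0.695 to 1.28, and in 0 of them was every MUL1(-/-) library above every WT library. The plot of CPT1C bins shows the step at the division. The last coding exon before the division is printed to show a stretch of the body that was counted more in MUL1(-/-) libraries.
CPT1C exon before the division, chr19:49711809-49711961, GRCh38, plus strand: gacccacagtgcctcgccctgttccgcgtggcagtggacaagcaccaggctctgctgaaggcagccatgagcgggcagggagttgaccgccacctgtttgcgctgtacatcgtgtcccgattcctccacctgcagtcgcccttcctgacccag
This exon held 8, 9 and 16 counts in WT and 79, 63 and 57 counts in MUL1(-/-) libraries, a ratio of 6.28 in mean CPM. Reads that cross a splice junction were not counted separately, so the counts do not assign the 3′ exons to one transcript or another.

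The acyl-CoA dehydrogenases catalyse the first step of each mitochondrial round, and 5 of the 9 were higher in MUL1(-/-) libraries while 0 were lower, beside 19.3% and 18.5% of all genes. One of the 5, ACAD11, turned below 0 on its unshared bins and was not called there. ACADVL, which acts on very long chains at the inner membrane, had the largest change of the set among genes called (ENSG00000072778, chr17:7217125-7225273). It was at 286, 264 and 259 CPM in WT and 453, 433 and 544 CPM in MUL1(-/-) libraries, 1.77 times higher, with a log2 fold change of 0.82 ± 0.08 (SE) and an adjusted p of 4.31e-06. The groups were far apart and MUL1(-/-) replicate 3 was the highest. Per length of bins its level rose from 55.4 to 98.0 CPM per kb.

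ACADSB, the dehydrogenase of short and branched chains that also serves isoleucine breakdown, was at 37.2, 36.9 and 43.3 CPM in WT and 50.0, 51.2 and 57.2 CPM in MUL1(-/-) libraries, with a log2 fold change of 0.43 ± 0.08 (SE) and an adjusted p of 0.000967. Its groups did not overlap. One 300-base bin of ACADSB, in a transcript annotated as retaining an intron, went the other way, from 49, 42 and 34 counts in WT to 28, 30 and 16 counts in MUL1(-/-) libraries, and exon-bin usage was called with an FDR of 0.0204. That call was lost without WT replicate 1, WT replicate 2, MUL1(-/-) replicate 1 or MUL1(-/-) replicate 3. ACAD11, which handles 4-hydroxy fatty acids, was at 44.7, 42.7 and 34.4 CPM in WT and 49.5, 55.0 and 55.3 CPM in MUL1(-/-) libraries, with a log2 fold change of 0.39 ± 0.09 (SE) and an adjusted p of 0.00456. The groups did not overlap, but bins shared with another gene held 83.3% of the ACAD11 counts. On its unshared bins the log2 fold change was -0.27 and was not called.

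ACADS, the short-chain enzyme, and ACAD9, which acts in complex I assembly as well as on long chains, had log2 fold changes of 0.27 and 0.21, with adjusted p values of 0.0432 and 0.0260 in edgeR's test. The ACADS call was lost without WT replicate 2 or 3 or any 1 MUL1(-/-) replicate, where the log2 fold change was 0.16 to 0.29, and the ACAD9 call without WT replicate 1 or 2 or MUL1(-/-) replicate 3, at 0.16 to 0.21. The medium-chain enzyme ACADM had a log2 fold change of -0.09 with an adjusted p of 0.379 in edgeR's test. Per length of bins it was the most counted dehydrogenase after ACADVL, at 31.0 CPM per kb in WT. That measure also depends on the number of bins. ACAD8 of valine breakdown, ACAD10 and the long-chain enzyme ACADL were not called, at 0.13, -0.00 and -0.18, and with library totals in place of TMM factors ACAD8 was called higher at 0.20. Without MUL1(-/-) replicate 3, ACADL was called lower at -0.47.

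Both chains of the electron transfer flavoprotein, which takes electrons from these dehydrogenases, rose in MUL1(-/-) libraries. ETFB (ENSG00000105379, chr19:51345169-51366418) was at 52.0, 48.6 and 46.7 CPM in WT and 74.3, 73.0 and 87.9 CPM in MUL1(-/-) libraries, with a log2 fold change of 0.68 ± 0.08 (SE) and an adjusted p of 2.26e-05. ETFA, the alpha chain, was at 352, 343 and 336 CPM in WT and 403, 429 and 498 CPM in MUL1(-/-) libraries, with a log2 fold change of 0.37 ± 0.08 (SE) and an adjusted p of 0.00155. In both genes the groups did not overlap. Bins shared with another gene held 46.0% of the ETFB counts and the log2 fold change on unshared bins was 0.67. Per length of bins, ETFA was at 68.3 and ETFB at 7.52 CPM per kb in WT, and at 88.1 and 12.0 CPM per kb in MUL1(-/-) libraries. ETFA is cut into 55 bins over 5031 bases and ETFB into 15 over 6526. These values therefore do not compare the amounts of the 2 RNAs. ETFDH, the ubiquinone oxidoreductase that receives the electrons from the flavoprotein, was not called, with a log2 fold change of 0.03 and an adjusted p of 0.858.

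**Figure D2:**
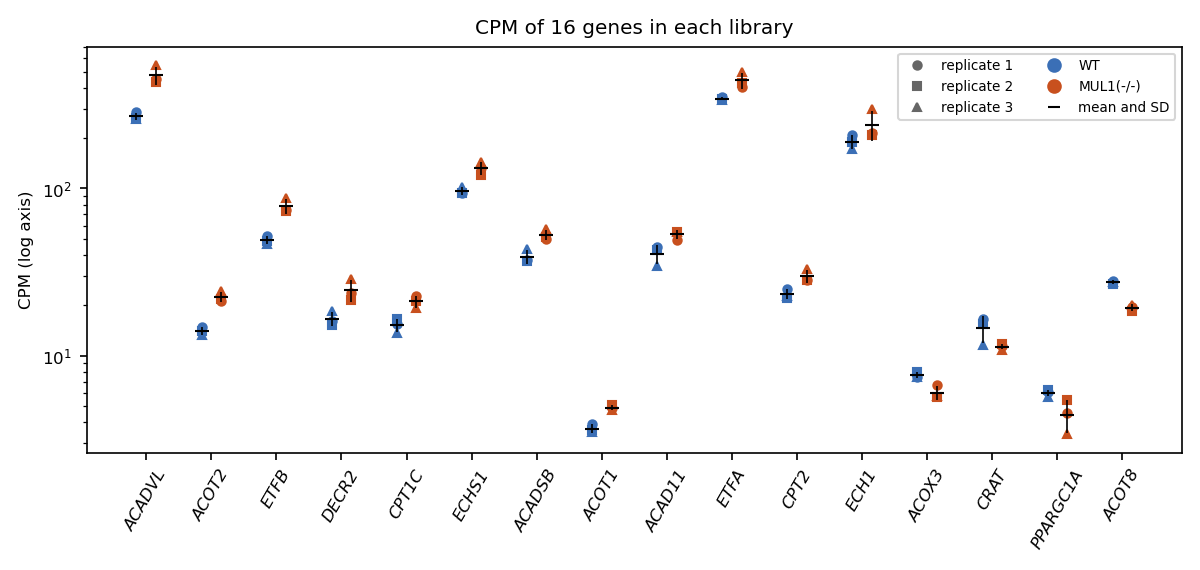
CPM (log axis) of the 16 genes with the largest log2 fold changes among those called, in order from the most raised to the most lowered; blue symbols are the 3 WT and orange symbols the 3 MUL1(-/-) libraries, one shape per replicate number, and black bars give mean and SD. The groups are apart in 15 of the 16 genes and overlap in CRAT, beside no overlap in 49% of all genes tested. The 16 genes were chosen by their calls in the same libraries, so this count adds no evidence.

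Among the 6 enzymes of the later mitochondrial steps, ECHS1, the short-chain enoyl-CoA hydratase, was higher and the other 5 were not called. Of all genes tested 19.3% were called higher. ECHS1 (ENSG00000127884, chr10:133362480-133373689) was at 94.3, 93.5 and 103 CPM in WT and 133, 121 and 143 CPM in MUL1(-/-) libraries, with no overlap, a log2 fold change of 0.45 ± 0.08 (SE) and an adjusted p of 0.000317. The subunits of the trifunctional protein, which carries out the last steps on long chains, had log2 fold changes of 0.07 ± 0.07 (SE) for HADHA and 0.14 ± 0.07 (SE) for HADHB, with adjusted p values of 0.474 and 0.147. HADH, the 3-hydroxyacyl-CoA dehydrogenase of shorter chains, and the thiolases ACAA2 and ACAT1 lay at 0.02, 0.05 and -0.08. HADHB was called higher when library totals replaced the TMM factors, at 0.20.

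Double bonds of unsaturated chains need isomerases and a reductase. Of these 5 auxiliary enzymes 2 were higher and 0 were lower, beside 19.3% and 18.5% of all genes tested. DECR2, the dienoyl-CoA reductase of peroxisomes, was at 16.2, 15.3 and 18.5 CPM in WT and 23.7, 21.5 and 28.6 CPM in MUL1(-/-) libraries, with a log2 fold change of 0.56 ± 0.11 (SE) and an adjusted p of 0.000924. Its groups did not overlap. ECH1, a dienoyl-CoA isomerase, was at 209, 191 and 172 CPM in WT and 215, 209.9 and 297 CPM in MUL1(-/-) libraries, with a log2 fold change of 0.33 ± 0.11 (SE) and an adjusted p of 0.0322. The groups did not overlap, but MUL1(-/-) replicates 1 and 2 lay just above the highest WT library, and the call was lost without MUL1(-/-) replicate 3 (0.15), WT replicate 2 (0.32) or WT replicate 3 (0.25). DECR1, the mitochondrial reductase, was near the floor, with 7, 3 and 12 counts in WT and 11, 4 and 17 counts in MUL1(-/-) libraries, and a difference was not detectable at this depth. ECI2 was not called, at -0.02.

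ECI1, the mitochondrial enoyl-CoA isomerase that moves the double bond of unsaturated chains, was not called as a sum (97.3, 87.2 and 84.5 CPM in WT, 95.8, 92.6 and 106 CPM in MUL1(-/-) libraries, log2 fold change 0.13 ± 0.08 (SE), adjusted p 0.207), but its exon-bin usage had the smallest FDR of the set, 3.86e-15. It was called without each of the 6 libraries in turn, as was that of CPT1C. The sum was called higher with library totals, at 0.19, and on the most counted bin alone, at 0.29. The bins that stood furthest apart, and are described for their FDR, were 4 bins of its first exon (chr16:2251515-2251591, minus strand), which summed to 432, 383 and 561 counts in WT and 1332, 1136 and 1223 counts in MUL1(-/-) libraries, or 3.36 ± 0.836 CPM and 9.41 ± 0.703 CPM, a ratio of 2.80. The 16 bins downstream of them summed to 86.1 ± 7.06 CPM and 88.4 ± 6.59 CPM, a ratio of 1.03. The bin furthest 5′, which opens a different annotated transcript, held 21, 30 and 26 counts in WT and 24, 27 and 19 counts in MUL1(-/-) libraries, a ratio of 0.960. Downstream of the 4 bins the ratio was 1.49 in the second exon and 1.22 in the third, and the later exons of the coding transcripts had ratios between 0.902 and 0.981 except in the last 500 bases of the gene, at 1.55. The bin of the second exon also passed, with a bin FDR of 0.00662 in edgeR's diffSpliceDGE. It held 977, 871 and 868 counts in WT and 1281, 1191 and 1388 in MUL1(-/-) libraries, so the difference was not confined to the first exon. The bins with the smallest FDR lie within the coding sequence of this exon and are printed here with the bin nearer the 5′ end in capitals, where the counts were 155, 142 and 208 in WT and 507, 418 and 431 in MUL1(-/-) libraries.
ECI1 first coding exon, chr16:2251515-2251562, GRCh38, minus strand, 75% G and C: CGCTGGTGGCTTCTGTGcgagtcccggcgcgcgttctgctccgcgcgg
The bases in lower case, a bin of 31 bases, held 205, 179 and 276 counts in WT and 625, 539 and 584 counts in MUL1(-/-) libraries. Either bin kept the groups apart. Whether coverage of sequence rich in G and C differed between the groups was not tested.

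**Figure D3:**
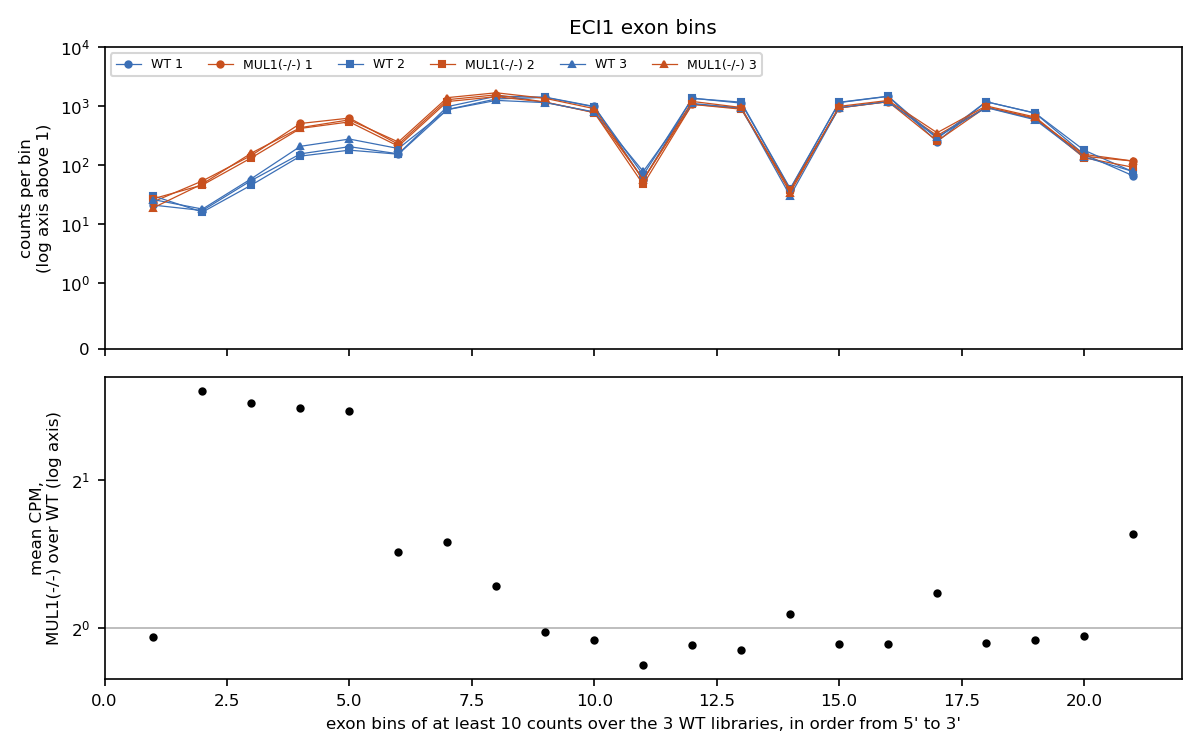
Counts per exon bin of ECI1 in each library (upper panel, log axis above 1) and the ratio of mean CPM, MUL1(-/-) over WT (lower panel, log axis), for bins of at least 10 counts over the 3 WT libraries, in order from the 5′ end. The 4 bins of the first coding exon stand 2.77 to 3.04 times higher in MUL1(-/-) libraries, with a ratio of 0.960 in the bin before them and 1.49 and 1.22 in the next exons.

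The 6 genes of peroxisomal beta-oxidation showed 1 called higher and 1 called lower, beside 19.3% and 18.5% of all genes tested. ACOX3, an oxidase of branched chains that opens the peroxisomal round, was at 7.50, 8.03 and 7.42 CPM in WT and 6.66, 5.65 and 5.70 CPM in MUL1(-/-) libraries, with a log2 fold change of -0.35 ± 0.10 (SE) and an adjusted p of 0.0166. The groups did not overlap, but the call was lost without WT replicate 2 (-0.33) or MUL1(-/-) replicate 2 (-0.31), and on its most counted bin the log2 fold change was -0.02. EHHADH, the L-bifunctional protein, had a log2 fold change of 0.25 with an adjusted p of 0.0416, and was not called without WT replicate 1 or 2 or MUL1(-/-) replicate 1 or 2, where the log2 fold change was 0.21 to 0.24. The thiolase ACAA1, the racemase AMACR and the D-bifunctional protein HSD17B4 were not called, at -0.12, -0.01 and -0.02. ACOX2, the oxidase of bile acid precursors, was at 0.254, 0.210 and 0.220 CPM in WT and 0.377, 0.229 and 0.211 CPM in MUL1(-/-) libraries, with overlapping groups.

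HSD17B4 was the most counted per length of bins of the 9 genes of peroxisomes only (35.8 CPM per kb in WT, 35.4 CPM per kb in MUL1(-/-) libraries). That measure also depends on the number of bins. In this gene 1 bin changed while the sum did not pass the test. This bin, an exon of 65 bases that some coding transcripts hold, is printed with the bases that a further transcript also holds in capitals.
HSD17B4 exon, chr5:119471636-119471700, GRCh38, plus strand: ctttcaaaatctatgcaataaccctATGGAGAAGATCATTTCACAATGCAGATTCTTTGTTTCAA
It held 13, 20 and 19 counts in WT and 37, 45 and 38 counts in MUL1(-/-) libraries, a ratio of 2.44 in mean CPM with no overlap, and exon-bin usage was called with an FDR of 0.00390. The call was lost without WT replicate 1 or MUL1(-/-) replicate 2.

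Carnitine acyltransferases and thioesterases end peroxisomal and mitochondrial oxidation by taking the acyl group off CoA. Of these 6 genes 2 were higher and 2 lower, beside 19.3% and 18.5% of all genes tested. ACOT2, which cleaves acyl-CoA in the mitochondrial matrix, was at 14.9, 14.1 and 13.2 CPM in WT and 21.4, 21.9 and 24.3 CPM in MUL1(-/-) libraries, with a log2 fold change of 0.68 ± 0.09 (SE) and an adjusted p of 3.30e-05. ACOT1, its cytosolic paralog, was at 3.92, 3.58 and 3.50 CPM in WT and 4.89, 5.04 and 4.71 CPM in MUL1(-/-) libraries, with a log2 fold change of 0.41 ± 0.11 (SE) and an adjusted p of 0.00777. Both genes kept the groups apart. ACOT8 (ENSG00000101473, chr20:45841721-45857406), which ends peroxisomal oxidation by cleaving shortened acyl-CoA, fell from 28.1, 26.9 and 27.6 CPM in WT to 19.5, 18.4 and 20.2 CPM in MUL1(-/-) libraries, with a log2 fold change of -0.51 ± 0.08 (SE) and an adjusted p of 0.000125. Its groups lay apart as well.

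ACOT1 and ACOT2 lie side by side on chromosome 14 and share most of their sequence, so reads of one can be counted for the other. Their coding sequences, of 1263 and 1449 bases, align over 1263 bases with 99.0% identity. The second exon, of 203 bases in both, is printed because both genes can be compared over it base by base, and the 5 bases that differ are in capitals.
ACOT1 second exon, chr14:73541493-73541695, GRCh38, plus strand: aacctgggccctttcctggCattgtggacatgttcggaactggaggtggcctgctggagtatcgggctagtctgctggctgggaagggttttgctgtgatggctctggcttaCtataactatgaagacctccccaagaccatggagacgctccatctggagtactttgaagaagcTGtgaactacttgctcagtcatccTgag
ACOT2 second exon, chr14:73573388-73573590, GRCh38, plus strand: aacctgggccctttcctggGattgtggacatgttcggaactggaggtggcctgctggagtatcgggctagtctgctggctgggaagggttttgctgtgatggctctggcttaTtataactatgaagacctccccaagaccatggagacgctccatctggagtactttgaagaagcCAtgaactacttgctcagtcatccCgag
Over this exon ACOT1 held 59, 43 and 43 counts in WT and 56, 71 and 40 counts in MUL1(-/-) libraries, which overlap. ACOT2 held 527, 521 and 412 counts in WT and 703, 715 and 783 counts in MUL1(-/-) libraries, which do not. How reads with more than 1 place were counted is not given in the sources used here, so the values of ACOT1 and ACOT2 apart are uncertain.

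CRAT, carnitine acetyltransferase, which exports acetyl groups as acetylcarnitine, was at 16.6, 15.5 and 11.5 CPM in WT and 11.4, 11.7 and 10.9 CPM in MUL1(-/-) libraries, with a log2 fold change of -0.36 ± 0.12 (SE) and an adjusted p of 0.0271. WT replicate 3 lay within the range of the MUL1(-/-) libraries, and the other WT libraries lay above it. The call was lost without WT replicate 1 (-0.26), WT replicate 2 (-0.33), MUL1(-/-) replicate 1 (-0.37) or MUL1(-/-) replicate 2 (-0.38), with library totals (-0.30) and on the most counted bin (-0.43). CROT, the octanoyltransferase of peroxisomes, was not called, at -0.15, and without MUL1(-/-) replicate 3 it was called lower, at -0.28. ACOT4, a peroxisomal thioesterase, had 1, 13 and 11 counts in WT and 21, 24 and 14 counts in MUL1(-/-) libraries, with an adjusted p of 0.0644 in edgeR's test. Its log2 fold change of 1.31 ± 0.52 (SE) rests on counts close to the floor. It was called higher without MUL1(-/-) replicate 3, at 1.49.

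Of the 3 regulators, PPARGC1A, which encodes the coactivator PGC-1alpha, fell, and the receptors PPARA and PPARD were not called. PPARGC1A (ENSG00000109819, chr4:23755041-23904089) was at 6.06, 6.22 and 5.69 CPM in WT and 4.52, 5.42 and 3.39 CPM in MUL1(-/-) libraries, with a log2 fold change of -0.43 ± 0.14 (SE) and an adjusted p of 0.0299. The groups did not overlap, and MUL1(-/-) replicate 3 was the lowest of all libraries. The call was lost without WT replicate 1 (-0.43), WT replicate 2 (-0.42), MUL1(-/-) replicate 1 (-0.44) or MUL1(-/-) replicate 3 (-0.27), and with library totals (-0.36). PPARA and PPARD had log2 fold changes of -0.11 ± 0.10 (SE) and 0.10 ± 0.08 (SE), with adjusted p values of 0.395 and 0.340.

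The libraries labelled MUL1(-/-) were not alike in this pathway. Replicate 3 was the highest of the 3 in 28 of the 40 genes of at least 1 CPM, where among all genes of that level it was highest in 46.9%. It was the highest in 22 of the 24 mitochondrial genes, DECR1 included, in 9 of 9 acyl-CoA dehydrogenases and in 0 of the 3 regulators. After CPT1A the gaps of replicate 3 over the mean of replicates 1 and 2 were 0.73 for ACADL, 0.51 for SLC25A20, 0.48 for ECH1 and 0.37 for CROT on the log2 scale among genes of at least 1 CPM, and the lowest was -0.55 for PPARGC1A. The median gap was 0.12 over the 40 genes and 0.04 over all genes of at least 1 CPM. These gaps are a description of 3 libraries and were not tested, and the order of the genes is shown in the plot of replicate 3 against the other MUL1(-/-) libraries.

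**Figure D4:**
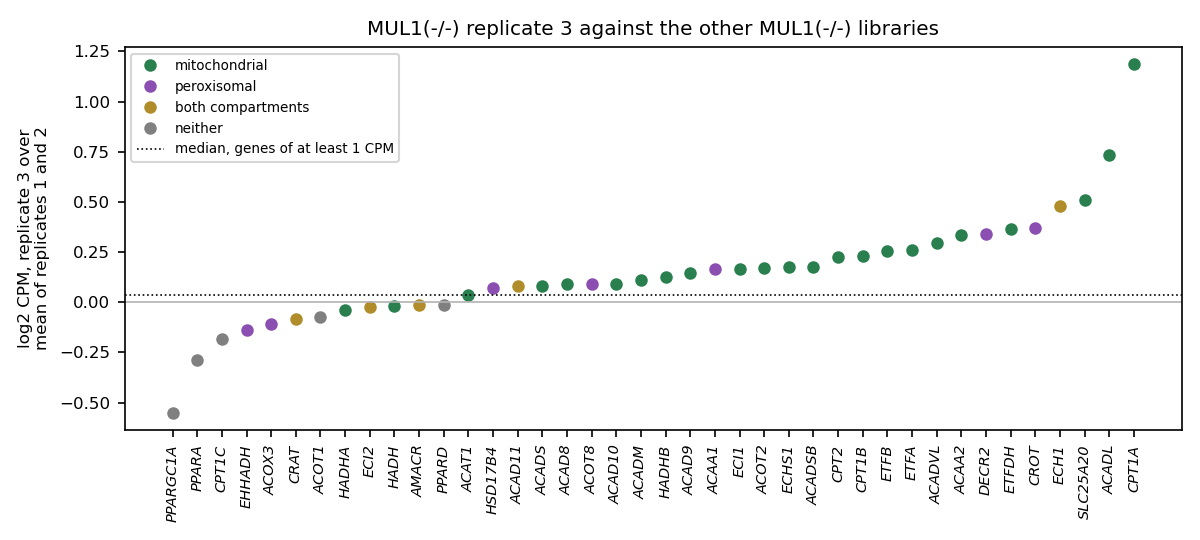
Log2 ratio of CPM in MUL1(-/-) replicate 3 to the mean of MUL1(-/-) replicates 1 and 2 (vertical axis, log2 units) for the 40 genes of at least 1 CPM, ordered by that ratio and coloured by compartment, with the median of all genes of at least 1 CPM as a dotted line. CPT1A stands highest at 1.19 and PPARGC1A lowest at -0.55.

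Several of the changed genes had neighbours on the chromosome whose values lay on the same side. The 20 nearest tested genes, 10 on each side, had a median log2 fold change of 0.43 around ACADVL, 0.36 around ETFA, 0.39 around CPT1C, 0.41 around ECH1 and -0.40 around ACOT8, on the same side as the gene itself in each. It was above the gene's own value around CPT1B (0.58 beside 0.20), EHHADH (0.40 beside 0.25) and ECH1 (0.41 beside 0.33). Around ETFA it was close to the gene's own 0.37. Around ETFB, ECHS1 and ACADS it was 0.25, 0.29 and 0.24, below the genes' own 0.68, 0.45 and 0.27. The neighbours of ACADSB went the other way, with a median of -0.43 beside 0.43 for the gene, as did those of PPARD at -0.23. Those of CRAT also did, at 0.06 beside -0.36 for the gene. Around ACOT2, DECR2 and CPT2 the medians were 0.12, 0.07 and -0.02, closer to 0 than the genes' own values of 0.68, 0.56 and 0.35.

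Among other genes of lipid oxidation in lists chosen for their known roles, the peroxins, which build peroxisomes, changed in both directions, with 4 of 16 higher and 7 of 16 lower and a median log2 fold change of -0.08. Of the genes of ketone body metabolism 3 of 7 tested were lower and 0 were higher, with a median of -0.14. In carnitine supply 2 of 5 tested genes were higher, in peroxisomal import and alpha-oxidation 1 of 9 was higher and 1 lower, and in the control of malonyl-CoA, the inhibitor of CPT1, 1 of 9 tested was higher and 3 were lower. Of 13 further thioesterases and hydratases 4 were higher and 4 lower, of 7 tested further transcriptional regulators 1 was higher and 2 were lower, and of 7 PPAR-responsive genes outside the pathway 1 was higher and 2 were lower, beside 19.3% higher and 18.5% lower of all genes.

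In these lists 4 genes were differentially expressed, and each of them was low. PLIN2, a coat protein of lipid droplets and a known PPAR target, fell from 0.649, 0.922 and 1.01 CPM in WT to 0.196, 0.206 and 0.203 CPM in MUL1(-/-) libraries (log2 fold change -2.09 ± 0.23 (SE), adjusted p 1.05e-05). UCP3, an uncoupling protein homologue of the inner mitochondrial membrane, rose from 0.365, 0.475 and 0.409 to 1.24, 1.24 and 1.51 CPM (log2 fold change 1.67 ± 0.18 (SE), adjusted p 8.09e-06). These 2 PPAR-responsive genes thus moved in opposite directions. ACOT12, a cytosolic acetyl-CoA thioesterase, fell from 0.306, 0.542 and 0.629 to 0.0452, 0.0838 and 0.0312 CPM (log2 fold change -3.18 ± 0.40 (SE), adjusted p 2.72e-05), and ACOT6, the neighbour of ACOT1, ACOT2 and ACOT4, rose from 0.149, 0.0678 and 0.144 to 0.339, 0.267 and 0.281 CPM (log2 fold change 1.30 ± 0.33 (SE), adjusted p 0.00631). Exons of a gene on the opposite strand touched bins that hold 90.9% of the ACOT6 counts. Because counting ignored strand, these counts may belong to either gene.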

How the data were processed

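RNA of 3 WT and 3 MUL1(-/-) HEK293 samples was sequenced from SMARTer libraries. The tables deposited by the authors hold raw counts of reads in exon bins, and their processing notes name Trimmomatic 0.36, STAR 2.5.2b and the build GRCh38, and the counting program is not given in the sources used here. Each table has 597973 bins under 54848 identifiers, of which 2031 join overlapping genes and hold 21.0% of counts. A read is counted in every bin it touches, so sums exceed reads and counting limits cover counting error only. At 11 pairs of identical bins on opposite strands with at least 100 counts the median ratio was 1.0, so counting ignored strand.

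Counts were summed per gene; bins of joined identifiers went to each named gene whose GENCODE 29 exon overlaps them. Whole-table totals (127466071 to 149317215 counts) were library sizes. Tests used edgeR 4.0.16 in R 4.3.3 (TMM factors, filterByExpr, quasi-likelihood test, Benjamini-Hochberg over 26053 genes), comparing MUL1(-/-) with WT, where the study used DESeq2. Alternatives were DESeq2 1.42.0, limma-voom 3.58.1, RLE factors, library totals, other filters, a replicate block, leaving out each replicate, the most counted bin and single-gene identifiers; unshared bins and exon-bin usage were added after seeing the data. On simulated counts of 26053 genes edgeR recovered 200 of 200 changed genes (log2 fold change 2) with 1 false call, and diffSpliceDGE recovered 200 of 200 among 14652 genes with 10 false calls. The largest log2 fold change of a called member was 0.82, and simulated bins were drawn independently. The checks thus do not measure recovery of changes as small as those reported, or false calls among bins that share reads. Replicates differed by 3.30 to 11.0 times sampling noise and were kept as separate samples. Tables and figures used Python 3.11.15, pandas 2.3.3, Biopython 1.88 and matplotlib 3.10.9.

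The members and lists were chosen with earlier results of these data known. Values in every library are given for the 16 members with the largest absolute log2 fold change among those of at least 1 CPM and an adjusted p under 0.05; other genes of the lists are named where differentially expressed. Sequences are GENCODE 29 transcripts of GRCh38. Some genes of the pathway are not analysed here.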

Additional observations from a re-analysis of the deposited data

How the results depend on the processing

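Under the 16 alternatives, 10 of the 20 called genes (ACADVL, ACOT2, ETFB, DECR2, ECHS1, ACADSB, ACOT1, ETFA, CPT2 and ACOT8) stayed called in the same direction, and 32 of the 43 genes kept their sign. With 1 replicate left out at a time there were 11 to 14 genes higher and 1 to 6 lower in the pathway, 0 to 1 differentially expressed higher, 1021 to 1288 higher and 925 to 1095 lower over all genes, and 2 to 4 pathway genes and 703 to 1547 genes in all with differing exon-bin usage, the lowest without WT replicates 1 (2 and 855) and 2 (703). The count called lower was 2 with library totals and 2 on the most counted bin. The 1 gene differentially expressed with limma-voom, and the 1 with no filter on low counts, was ACOT4. With at least 1 CPM in 3 samples, which leaves fewer genes to test, 352 genes in all were differentially expressed higher and 461 lower.

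Direction turned for CPT1C on the most counted bin (-0.16) and ACAD11 on unshared bins (-0.27), where the bins kept differ, and for 9 genes not called. These were SLC25A20 with limma-voom (-0.023), the most counted bin (-0.091), the replicate block (-0.020), single-gene identifiers (-0.0038) and unshared bins (-0.0024); ACAD10 with a minimum of 1 CPM (0.0015), library totals (0.063), no filter (0.021) and unshared bins (0.0025); ECI2 with library totals (0.046), the most counted bin (0.013) and no filter (0.0020); HSD17B4 with library totals (0.049), the most counted bin (0.027) and no filter (0.0061); and AMACR with library totals (0.050), no filter (0.0065) and unshared bins (0.075). Without 1 replicate the log2 fold change ranged from -0.19 to 0.13 for SLC25A20, -0.033 to 0.029 for ACAD10, -0.11 to 0.11 for HADH, -0.068 to 0.12 for ACAA2, -0.079 to 0.00051 for ECI2, -0.10 to 0.13 for ETFDH, -0.050 to 0.41 for ACOX2, -0.047 to 0.0084 for HSD17B4 and -0.055 to 0.017 for AMACR. For these genes near 0 the cause was not tested.

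The sample labels give both groups the numbers 1 to 3. Deviations from the group means, over 16585 genes, correlated between same-numbered samples at -0.11, 0.17 and 0.10. Between differently numbered samples they correlated at -0.19 to 0.10. Replicates 2 and 3 of both groups correlated best with their own number and replicates 1 did not. Correlations this weak, from 3 samples per group, cannot decide whether the numbers pair the samples. With the replicate block 13 pathway genes were called higher and 4 lower and 0 were differentially expressed, CPT1B, ECH1 and EHHADH were no longer called, and 1035 and 947 genes in all were differentially expressed. Depth limits DECR1, ACOT4 and ACOX2, at a mean under 1 CPM each.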
